A study of Mus musculus with 4 samples.

Results

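H19 and Igf2 are the imprinted genes of the growth locus on distal mouse chromosome 7, and their polyadenylated 3′ ends and CstF64 alignments were described here. The members were chosen by position, as all minus-strand positions within chr7:149761000-149764500 for H19 and chr7:149836000-149853000 for Igf2 in the mm9 build. Of 315205 cleavage positions in the series, 29 were members, 27 in H19 and 2 in Igf2. The CstF64 data held 283 and 240 distinct alignments in the H19 window and 0 in the Igf2 window. Cleavage positions came from 3'READS, which captures the poly(A)-bearing end of RNA fragments on beads and sequences it, applied to pooled RNA of 11 mouse cell lines bought as a mix, so the line that supplied an RNA is not known. A library was made with the CU5T45 oligo, which carries 5 U and 45 T and was followed by RNase H release, and another with oligo(dT)10-25 beads. CLIP-seq of CstF64 (crosslinking and immunoprecipitation with sequencing) was done on UV-irradiated proliferating cells of a single line, the C2C12 myoblasts, and is given as 2 replicates. The series holds no control library for the CLIP, so CstF64 contact and unspecific recovery of an RNA cannot be told apart. The labels name no genetic change or drug treatment in either material.

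H19 is a long noncoding RNA transcribed from the maternal allele, and Igf2 encodes insulin-like growth factor 2, a fetal growth factor transcribed from the paternal allele. Both genes lie on the same strand and share downstream enhancers, and CTCF bound to the unmethylated maternal control region keeps Igf2 from these enhancers. CstF64 is the member of the cleavage stimulation factor that contacts RNA, and it binds U- and GU-rich sequence downstream of poly(A) sites during 3′ end processing.

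Each gene also hosts a miRNA. An exon of H19 holds miR-675 and an intron of Igf2 holds miR-483, by the GENCODE vM21 gene models and the RefSeq sequences of GRCm38.p6. The 4 mature sequences are shown because they are the other RNA products of the 2 transcripts. They are written 5′ to 3′ with the seed, bases 2 to 8, in capitals, and each seed was unlike that of every other mature miRNA among the 1738 in the RefSeq table.
mmu-miR-675-5p: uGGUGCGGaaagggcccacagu
mmu-miR-675-3p: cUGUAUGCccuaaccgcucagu
mmu-miR-483-5p: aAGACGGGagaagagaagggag
mmu-miR-483-3p: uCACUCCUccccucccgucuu
In GRCm38.p6, on the minus strand, miR-675-5p lies at chr7:142577112-142577133 and miR-675-3p at chr7:142577078-142577099, and miR-483-5p lies at chr7:142654968-142654989 and miR-483-3p at chr7:142654932-142654952.

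The CU5T45 library held 6738355 reads and the oligo(dT)10-25 library 3482826, and the CLIP replicates held 1101047 and 1352122 distinct alignments. With 1 library per oligo there was no replicate error. Intervals are 95% intervals for counting error only, they compare these libraries and not the conditions, and PCR copies without molecular identifiers make them too narrow. No p-value was computed. Where no read was found, the limit taken is 3 reads: 0.445 CPM (counts scaled to a library of 1000000) for CU5T45 and 0.861 CPM for oligo(dT)10-25.

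The genes behind the windows were checked by spacing, because the annotation at hand was of GRCm38, another build. The most used positions of the windows, 149761435 and 149836672, lay 75237 nt apart in mm9. The most distal annotated 3′ ends of H19 and Igf2 also lie 75237 nt apart in GRCm38. No coordinate was converted, and distances from a gene's end were set side by side.

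H19 reads ended at essentially a single mapped position. Sequence at the site was not read, so whether this position stands for 1 cleavage point was not tested. In the CU5T45 library, 581 reads ended at position 149761435, and in the oligo(dT)10-25 library 461 did. Position 149761433 had 2 reads in each library, 149761437 had 2 oligo(dT)10-25 reads, 149761429 and 149761439 had 1 CU5T45 read each, and 149761430 had 1 oligo(dT)10-25 read. Chained at gaps of at most 24 nt, these 6 positions formed a cluster spanning 10 nt, and its most used position held 99.3% of the CU5T45 reads (exact Clopper-Pearson interval 98.3 to 99.8) and 98.9% of the oligo(dT)10-25 reads (97.5 to 99.7). Both libraries thus had the same most used nucleotide. The files do not state whether positions are counted from 0 or 1, so printed positions may be off by 1 nt.

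Igf2, which encodes the growth factor, also had 1 measured 3′ end and no alternative. Position 149836672 had 90 CU5T45 and 49 oligo(dT)10-25 reads, and 149836674, 2 nt away, had 1 oligo(dT)10-25 read. No other minus-strand position of the 17001 nt window had a read in either library. By the limit of 3 reads, a count of 0 among 90 and 50 reads allows up to 3.33% and 6% of Igf2 reads at any other end. The upper Clopper-Pearson bounds were 4.02% and 7.11%. Minor alternative ends below such shares were not detectable at this depth. Of the 9 annotated Igf2 transcripts, 4 end within 24 nt of the most distal end. The others end from 77 to 4676 nt upstream of it in GRCm38, and 0 reads of either library lay within 24 nt of any of these distances in mm9.

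Mapped read ends at both genes were more concentrated on 1 position than at most sites. Among 8808 nuclear clusters that had at least 30 reads per library, the median share at the top position was 74.4% in CU5T45 and 74.6% in oligo(dT)10-25. For H19, 95.9% of these clusters had a lower CU5T45 share and 93.3% a lower oligo(dT)10-25 share. For Igf2, 97.2% and 90.2% had a lower share, and 249 clusters, Igf2 included, had all CU5T45 reads at 1 position. The Igf2 cluster spanned 2 nt against a median of 17 nt. This place among clusters is a description, and a cluster with fewer reads has fewer chances to show a second position.

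**Figure D1:**
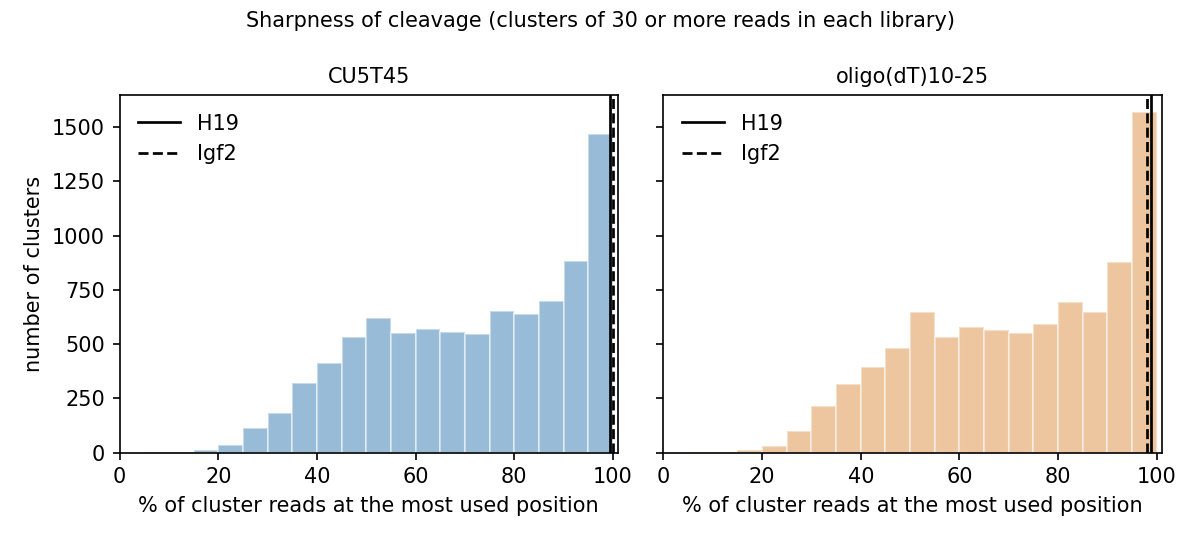
Histograms of the percentage of a cluster's reads that ended at its most used position (x axis) in the CU5T45 (left) and oligo(dT)10-25 (right) libraries, with the number of nuclear clusters on the y axis. The solid line for H19 (99.3% and 98.9%) and the dashed line for Igf2 (100% and 98.0%) fall in the highest bin of both panels.

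The H19 end took a smaller share of the CU5T45 library than of the oligo(dT)10-25 library. With 1 library per oligo, oligo and library cannot be told apart. Its cluster had 585 CU5T45 reads, or 86.8 CPM (exact Poisson interval 79.9 to 94.1), and 466 oligo(dT)10-25 reads, or 134 CPM (122 to 147). The intervals of the libraries did not overlap. The share was 1.54-fold lower in CU5T45 (exact conditional interval 1.36 to 1.74), a log2 ratio of -0.62. At 23.5% of the 16684 clusters with 30 or more reads the interval of the ratio lay below 1, and at 27.5% it lay above 1. A fall of at least 1.5-fold with an interval below 1, as at H19, was found at 19.9% of clusters, so a ratio of this size was common. The median log2 ratio of nuclear clusters was 0.11, and relative to it H19 was 1.67-fold lower. Mitochondrial reads, which took 2.74% of the CU5T45 and 5.57% of the oligo(dT)10-25 reads, also differed between the libraries, and leaving them out of the totals gave an H19 ratio of 0.630 in place of 0.649.

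The Igf2 end gave no detectable difference between the libraries. It had 90 CU5T45 reads, 13.4 CPM (10.7 to 16.4), and 50 oligo(dT)10-25 reads, 14.4 CPM (10.7 to 18.9), and these intervals overlapped. The ratio of shares was 0.930 (0.651 to 1.34). This interval includes equal capture but is wide, it overlaps the interval of H19 (0.574 to 0.734), and it does not show that the oligos captured Igf2 alike.

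**Figure D2:**
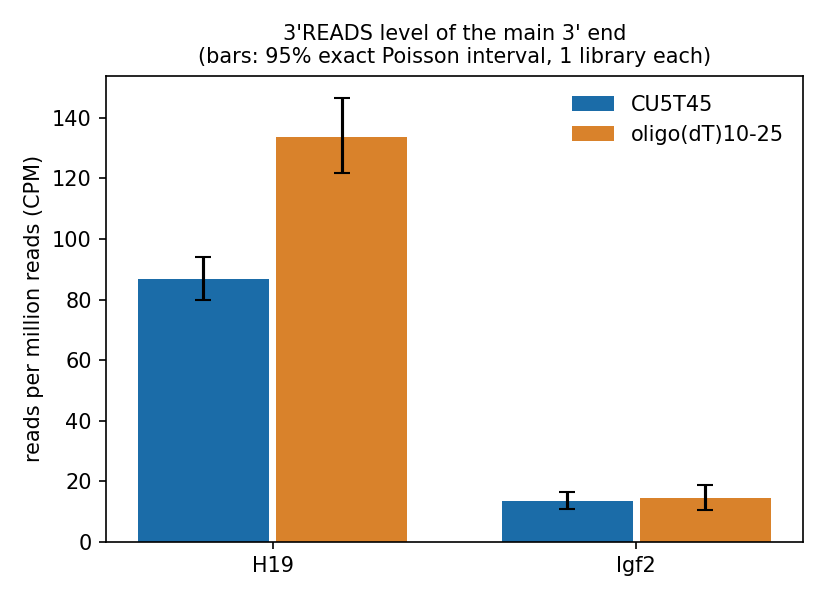
Level in CPM (y axis from 0) of the main 3′ end of H19 and Igf2 in the CU5T45 (blue) and oligo(dT)10-25 (orange) libraries, with 95% exact Poisson intervals as error bars and 1 library per bar. H19 stands at 86.8 and 134 CPM with intervals that do not overlap, and Igf2 at 13.4 and 14.4 CPM with intervals that do.

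H19 ends gave several times the reads of Igf2 ends in the mix. A 3′ end is counted once whatever the length of its gene, so gene length does not enter the comparison. Read shares differed between the libraries beyond counting error at many sites, and how well each end was captured was not measured. The ratios are therefore of reads and not of RNA molecules. Within the CU5T45 library the H19 cluster had 6.5 times the reads of the Igf2 cluster (5.20 to 8.21), and within the oligo(dT)10-25 library 9.32 times (6.95 to 12.7). These ratios need no scaling between libraries. The first over the second was 0.698 (0.473 to 1.02). A difference between the libraries in the balance of both genes was thus not resolved at this depth. In a pool of lines, fewer expressing cells and less RNA per cell cannot be told apart. Of 16636 nuclear clusters with 30 or more reads, 8.28% had more reads than H19 and 42.0% had more than Igf2.

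**Figure D3:**
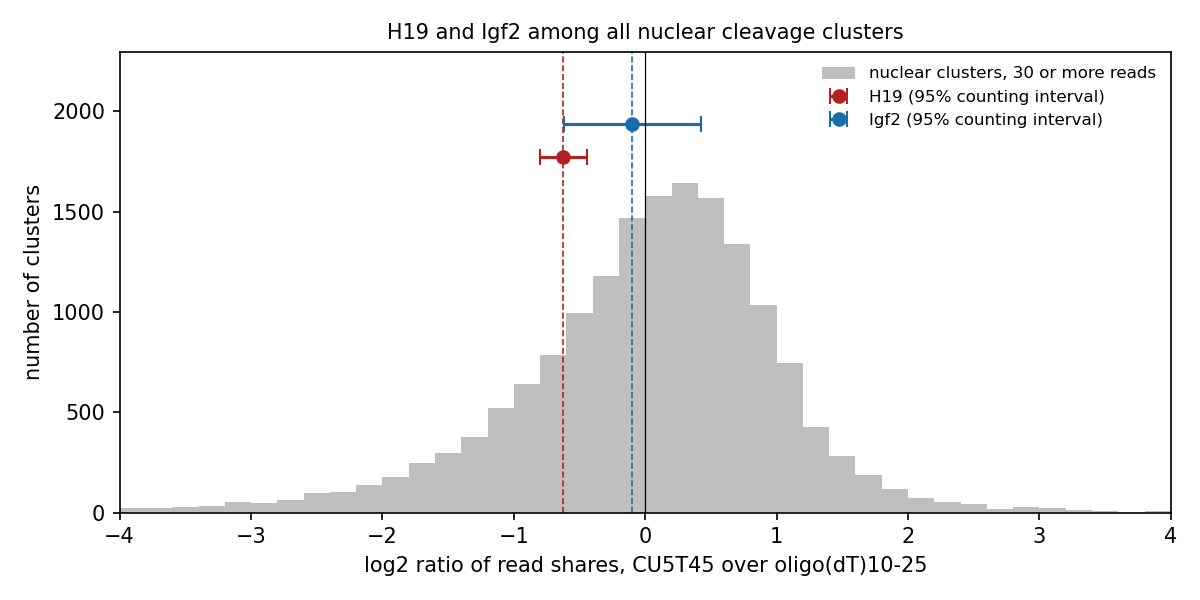
Histogram of the log2 ratio of read shares, CU5T45 over oligo(dT)10-25 (x axis), with the number of clusters on the y axis. It was drawn from the 16636 nuclear clusters with 30 or more reads. The x axis is cut at -4 and 4, so clusters beyond these values are not shown. The points mark H19 (red, -0.62) and Igf2 (blue, -0.10) with 95% counting intervals as bars, and their height has no meaning. The interval of H19 lies wholly below 0 and that of Igf2 includes it.

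The clusters closest to each gene in both libraries were named by the smallest Euclidean distance in log2(CPM + 1) over these 2 libraries. For H19 they were chromosome 10 at 117125947, minus strand (580 CU5T45 and 447 oligo(dT)10-25 reads, distance 0.0608), chromosome 11 at 60677953, minus strand (560 and 460 reads, 0.0650), and chromosome 9 at 92192568, plus strand (610 and 456 reads, 0.0673). For Igf2 they were chromosome 1 at 20929730, plus strand, with the same 90 and 50 reads, chromosome 14 at 32916388, plus strand (90 and 49 reads), and chromosome 1 at 136528526, plus strand (89 and 51 reads). Within a distance of 0.1 lay 4 clusters for H19 and 51 for Igf2, so at the level of Igf2 such likeness was common.

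Besides its end, H19 gave a thin scatter of polyadenylated positions along its body. There were 21 such positions, from 528 to 2453 nt upstream of the end, with 13 CU5T45 and 10 oligo(dT)10-25 reads, and none had more than 1 read in a library. They made up 2.17% of the CU5T45 reads of the window (1.16 to 3.69) and 2.10% of its oligo(dT)10-25 reads (1.01 to 3.83). The shares in the libraries thus did not differ beyond counting error. Positions 149763548 and 149763819, at 2113 and 2384 nt upstream, were hit once in each library. In H19 the scatter amounted to 9.38 reads per kb over both libraries, against 0.00699 per kb and strand in the 71499 nt between the windows. Chained with the same gap, 4 clusters of 3 or 4 reads formed, at positions from 1451 to 2453 nt upstream.

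One of these small clusters lay close to an annotated end by distance. It had 3 CU5T45 reads and 1 oligo(dT)10-25 read at positions 149762886 to 149762894, which begin 1451 nt upstream of the main position. An annotated H19 transcript ends 1453 nt upstream of the most distal H19 end in GRCm38. Each position of the cluster had 1 read, and the annotated ends were compared after seeing the data. Whether the cluster differs from the scatter along the body was not tested, so it does not show use of this end. At the other upstream annotated ends, at 105 and 978 nt, there were 0 reads in both libraries. Over the stretch that corresponds by distance to the miR-675 hairpin, 1535 to 1618 nt upstream, there were 0 reads and 0 CLIP midpoints. At its near edge, 1535 to 1540 nt upstream, 1 alignment of replicate 1 reached in. In so short a stretch few reads would fall at this scatter, so the 0 says little. The miR-483 hairpin in Igf2, 4158 to 4230 nt upstream of its end, also had 0 reads and 0 CLIP midpoints. This follows from the absence of reads outside the Igf2 main cluster and of CLIP alignments in its window.

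Internal reads took a larger share at H19 than behind most abundant ends. Among 2124 nuclear clusters with 500 or more reads and no other cluster of 30 or more within 2500 nt upstream, reads in that stretch took a median of 0.204% and H19 2.14%, and 92.3% of these clusters had less. How much of the stretch is intron was not taken into account for the other clusters.

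The opposite strand was nearly empty. The plus strand of the H19 window had 0 reads in both libraries. That of the Igf2 window had 1 read in each library, both at position 149841861, 5189 nt upstream of the Igf2 end.

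From 200 nt downstream to 1000 nt upstream of its end, H19 held more CstF64 alignments than nearly all other sites. Most lay upstream of the cleavage position, and few lay within 100 nt of it. The H19 window held 283 distinct alignments (359 reads) in replicate 1 and 240 (305 reads) in replicate 2, on the transcribed strand, and 0 and 0 on the opposite strand. Scaled to the depth of each replicate, these were 257 and 177 CPM of the alignments. From 200 nt downstream to 1000 nt upstream of the main position there were a mean of 219 alignments, and 19 of the 16636 nuclear clusters with 30 or more reads had more, beside a median of 4. Among the 1895 clusters with 525.5 to 2102 reads, from 1/2 to 2 times the reads of H19, 99.8% had fewer. The alignments come from C2C12 cells and the cleavage reads from the mix, and neither was divided by the amount of H19 RNA in C2C12 cells.

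The CstF64 alignments gathered in a narrow stretch well away from the cleavage site. From 300 to 400 nt upstream lay 166 of the alignments of replicate 1 (58.7%, 52.7 to 64.5) and 115 of those of replicate 2 (47.9%, 41.4 to 54.4). The bounds of this stretch were set from the H19 peak itself, so its share is a description. Chained by midpoint, they formed a CLIP cluster at 149761720 to 149761857 that ranked 60 of the 6107 CLIP clusters with 10 or more alignments in the lower replicate. Its most frequent RNA 3′ boundary was 318 nt upstream of the cleavage position, shared by 32 and 20 alignments, or 19.3% and 17.4%. RNase T1, which trimmed the RNA, cuts after G. The base at this boundary was not read, and the part of the nuclease in it was not tested. The 5′ ends were spread over 58 and 44 positions. With distinct 5′ ends counted in place of alignments, the whole window held a mean of 147.5 in place of 261.5. The stretch from 300 to 400 nt then held a mean of 34.5% of the window count in place of 53.3%.

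Another 3 CLIP clusters of H19 passed the minimum of 10 alignments. The next in size, at 149761884 to 149762018, had 34 and 39 alignments with a median midpoint 503 nt upstream. A cluster at 149761642 to 149761738 had 12 and 11 alignments, 272.5 nt upstream, and one at 149763925 to 149764010, near the 5′ end of the window, had 10 and 11, 2536.5 nt upstream. The longest annotated H19 transcript has 5 exons in GRCm38 and its last exon is 586 nt long. Within this distance upstream of the cleavage position lay 226 alignments of replicate 1 (79.9%, 74.7 to 84.4) and 181 of replicate 2 (75.4%, 69.5 to 80.7), or 38.6 and 30.9 per 100 nt. The rest of the upstream window had 2.02 and 1.90 per 100 nt.

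**Figure D4:**
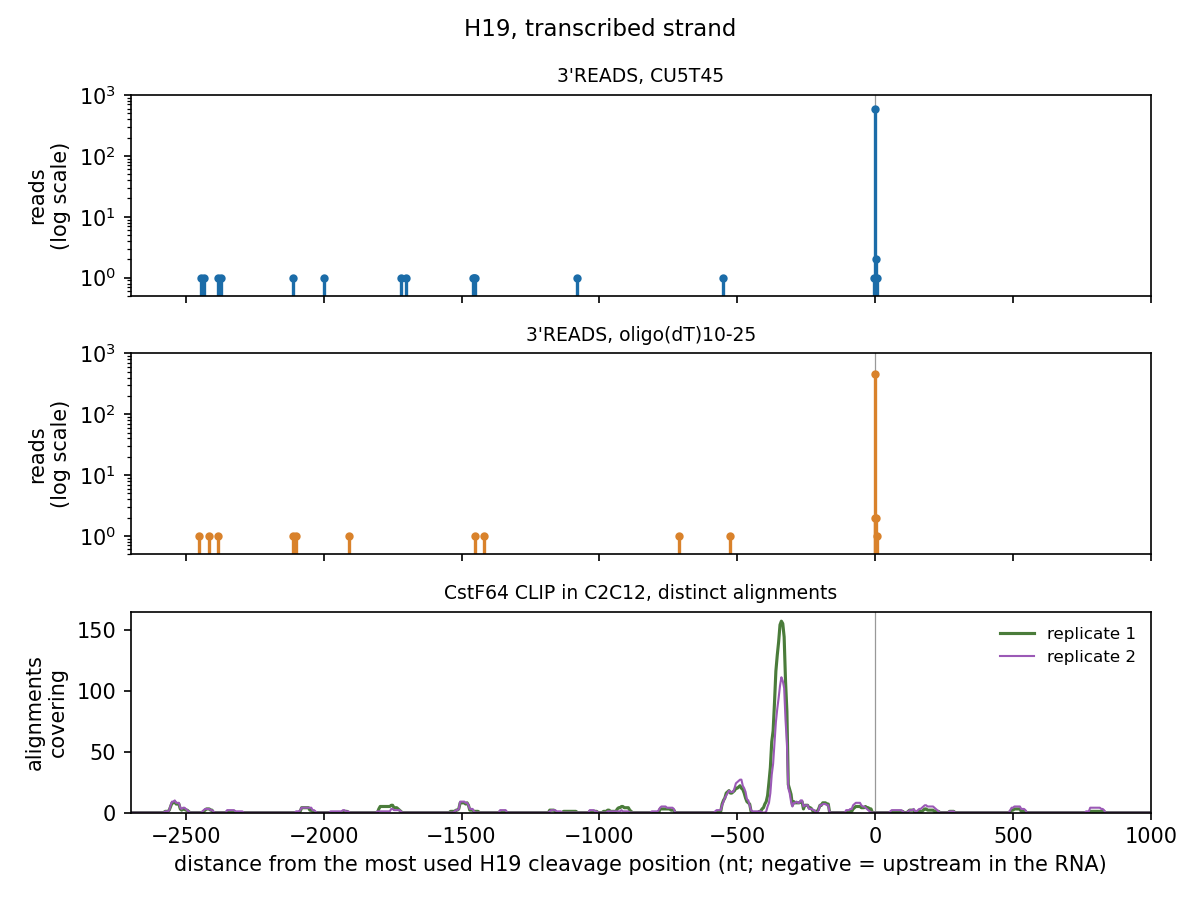
Tracks along H19 on the transcribed strand, with distance from the most used cleavage position in nt on the x axis (negative upstream): 3'READS reads per position on a log scale for CU5T45 (top) and oligo(dT)10-25 (middle), and the number of distinct CstF64 CLIP alignments covering each point for both replicates (bottom). The 581 and 461 reads at 0 stand above a scatter of single reads, and the CLIP coverage peaks 340 nt upstream, at 157 and 111 alignments, with little at 0.

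At the cleavage site itself the alignments were sparse for so dense a transcript. Within 100 nt on either side lay 7 and 10 alignments, 6 and 8 of them upstream and 1 and 2 downstream. In the 40 nt downstream there were 0 in both replicates, and 0 alignments spanned the position. The nearest alignment downstream began 58 nt away in replicate 1 and 52 nt in replicate 2. At 51.1% of nuclear clusters with 30 or more reads both replicates had an alignment within 100 nt, and 10.2% had more than the H19 mean of 8.5. Of the alignments from 200 nt downstream to 1000 nt upstream, 3.88% lay within 100 nt of the H19 site. Among the 349 clusters with at least 50 such alignments in each replicate the median was 32.7%, and 92.3% had a larger share than H19.

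Some alignments lay beyond the cleavage site. Downstream of the main position the window held 7 alignments in replicate 1 and 12 in replicate 2, and the next 1000 nt below the window held 4 and 9. The farthest reached 833 nt downstream. No 3'READS position of either library lay in these 1000 nt on either strand, and the opposite strand had 0 CLIP alignments there.

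The CLIP replicates differed at H19 by more than at most sites dense in alignments. They share so many alignments in the whole files that they were counted as 1 sample, with 90.8% of the replicate 1 alignments under 50 nt also in replicate 2, and 77.3% of those of replicate 2 also in replicate 1. In the H19 window 106 were shared, which is 58.2% of the 182 of replicate 1 and 72.1% of the 147 of replicate 2, so the gap to the whole files was wide on the side of replicate 1 and small on that of replicate 2. Of 152 CLIP clusters with 50 or more such alignments in replicate 1, 0.658% had a smaller shared part of replicate 1 than the H19 window. The H19 value is of the whole window and the others are of single CLIP clusters, so the units differ. The replicate 2 side was not ranked. The share of all alignments that fell from 200 nt downstream to 1000 nt upstream of the H19 end was 1.5-fold higher in replicate 1 (1.24 to 1.82), and 99.4% of the 349 dense clusters had a smaller ratio. In the CLIP cluster around 340 nt it was 1.77-fold higher (1.39 to 2.27), while in the rest of the window the ratio was 1.15 (0.886 to 1.49). The intervals of these ratios treat the replicates as independent counts, which they are not, because they share alignments. The longest alignments measured 69 nt in replicate 1 and 57 nt in replicate 2, and the part of this length in the difference was not tested. The peak from 300 to 400 nt upstream held the most alignments of any 100 nt bin of H19 in each replicate taken alone.

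No CstF64 alignment was found at Igf2 in C2C12 cells. Both replicates had 0 alignments over the 17001 nt window on the minus strand and 0 on the plus strand. A count of 0 allows up to 3 alignments, or 2.72 and 2.22 CPM of the alignments, against 257 and 177 CPM for H19. Without any alignment from 200 nt downstream to 1000 nt upstream were 31.0% of the nuclear clusters with 30 or more reads, and 29.6% of the 6198 with 70 to 280 reads, 1/2 to 2 times those of Igf2. Such absence was therefore common at this level. Its 3′ end was measured in the mix and not in C2C12 cells, so a lack of Igf2 RNA and a lack of CstF64 contact cannot be told apart.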

How the data were processed

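The members, windows and lists were chosen with earlier results of these data known. 3'READS was measured in 2 libraries of the cell line mix and CstF64 CLIP in 2 replicates of C2C12 cells. Read counts were used as the authors deposited them, as whole numbers in the fifth column, with no normalization stated per the labels. Per the labels' protocols, 3'READS libraries were amplified by 12 PCR cycles and read for 72 nt. The submitters' processing notes name mm9, Bowtie and Novoalign, without versions or roles, and read filters are not given in the sources used here.

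The computations used scipy 1.17.1, pandas 2.3.3 and numpy 2.4.6 under Python 3.11.15, and matplotlib 3.10.9 drew the figures. Positions of both 3'READS libraries were chained on each strand at gaps of at most 24 nt, which gave 56206 clusters of at least 3 reads. Ratios of shares were computed at all clusters of 30 or more reads, with exact conditional binomial intervals, and were tested on simulated data. The simulated counts had counting error only, so this test does not cover the effect of PCR copies. Shares have Clopper-Pearson intervals and CPM exact Poisson intervals. CLIP alignments were placed by midpoint and counted as distinct alignments. The mean of the replicates has no SD, and they count as 1 sample. Sites named are every cluster of 30 or more reads in a window, up to 5 CLIP clusters per window and strand with 10 or more alignments in the lower replicate, and the 3 clusters nearest in level. Smaller clusters are given by count and range. The stretch from 300 to 400 nt upstream, the internal share, the dense clusters, the sharing of CLIP alignments, and the comparison with annotated ends, exons and hairpins by distance were chosen after seeing the data. The IGF axis genes and cell type markers listed for this locus, and sequences around the sites, need an annotation or genome of mm9 and were not analysed here. Alternatives changed the totals, depth, cluster gap, read minimum, counting, CLIP placement and windows.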

Additional observations from a re-analysis of the deposited data

How the results depend on the processing

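Leaving out mitochondrial reads, scaling by the median ratio and thinning CU5T45 kept each ratio of shares within its counting interval. Changing the cluster gap could not alter the main clusters, whose positions lay close together with no other within 50 nt. The main clusters and the H19 window had no plus-strand reads to subtract. For the Igf2 window this subtraction gave a ratio of 0.939 in place of 0.930. Counting each position once divides by the number of positions and leaves few counts. It gave ratios of 0.766 for the H19 cluster, 0.930 for the H19 window and 0.383 for both the Igf2 cluster and window, and 17 and 7 times as many H19 as Igf2 positions in CU5T45 and oligo(dT)10-25. Allowing 2 nt around the most used position raised the oligo(dT)10-25 share to 99.8% at H19 and 100% at Igf2. Igf2 had 1 cluster under all 5 alternatives run for that count. In the H19 window the mean CLIP count was 332 with every read counted and 147.5 with distinct 5′ ends, an alternative chosen after seeing the data. Without each CLIP replicate it ranged from 240 to 283, near the site from 7 to 10, and the share from 300 to 400 nt upstream from 47.9% to 58.7%. That share was 60.6% by reads and 34.5% by distinct 5′ ends. Near the H19 site the mean of 8.5 alignments became 0.5 within 40 nt and 21.5 within 200 nt, since these windows differ in width. All CLIP counts of Igf2 remained 0 under the alternatives run. Of 77 alternative values, 63 were labelled unchanged and 14 moved. A value was unchanged if it lay within the counting interval of the main value. The number of Igf2 clusters was held to a 1.5-fold range instead. Some of the 63 could not move, and the Igf2 cluster and window hold the same reads. No paired analysis was possible because each oligo has 1 library and the CLIP replicates share no number with a compared group. The Igf2 values rest on 90 and 50 reads.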

Other observations

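Within 20000 nt outside the windows, a minus-strand 3′ end above Igf2 lay at 149864560, with 115 CU5T45 and 40 oligo(dT)10-25 reads in its cluster and a ratio of shares of 1.49 (1.03 to 2.19), higher in CU5T45. Below H19 clusters lay at 149741278, with 23 and 5 reads (ratio 2.38, 0.884 to 8.01), and 149741200, with 9 and 7 reads (0.665, 0.220 to 2.10). None of these 3 clusters had a CLIP alignment within 100 nt in either replicate. The 71499 nt between the windows, where the imprinting control region is known to lie, had 1 CU5T45 read on the plus strand, 0 reads on the minus strand and 0 CLIP alignments on either strand.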
